A study of Mus musculus with 2 samples.

Results

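Mir126a, Mir221, Mir222, Mir218-2 and Mir218-1 are 5 microRNA (miRNA) genes known from endothelium and the vessel wall. They were followed in the heart of the mouse embryo, 5 of the 1973 miRNA genes counted. They were chosen by name, with earlier results of these data known. miRNAs are short RNAs that guide Argonaute proteins to messenger RNAs and lower their output. The data were read counts from small RNA sequencing of B6NCrl mouse hearts at embryonic day 14.5, with 2 libraries in 1 group, numbered by the labels as biological replicates 2 and 1. Hearts were collected on 17 July 2014 for replicate 2 and on 15 July 2014 for replicate 1. The labels name no treatment, genotype or control, so every value describes a baseline. They describe each library as a single heart but its sex as mixed, and do not settle how many embryos it held.

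Of 7269505 reads in replicate 2, 3839984 were counted on miRNA genes, and of 8150499 reads in replicate 1, 4327424 were. Levels are given in CPM, counts scaled to 1000000 reads on miRNA genes, and 95% intervals and ratio intervals cover counting error only. Ratios and orders between genes compare reads, and whether different miRNAs were captured alike was not measured. Of all reads, 30.1% in replicate 2 and 30.6% in replicate 1 mapped to several places and were given to no gene. The cardiomyocyte markers Mir208a, Mir208b and Mir499 were all detected and summed to 79354 CPM in replicate 2 and 75752 in replicate 1. Hearts were sequenced whole, so fewer cells of a type and less miRNA per cell cannot be told apart.

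miR-126 is the best known endothelial miRNA. It is made from within Egfl7, a gene for a protein secreted by endothelial cells, and favours signalling by vascular endothelial growth factor by repressing Spred1 and Pik3r2, which damp that signal. miR-221 and miR-222 are made from neighbouring hairpins. In human endothelial cells they repress KIT, a receptor for stem cell factor, and in smooth muscle they favour division by repressing the cell cycle inhibitor p27. miR-218 is made from introns of Slit2 and Slit3, whose proteins are ligands of Robo receptors, and represses Robo receptor genes. In zebrafish this loop bears on formation of the heart tube, and in mouse miR-218 is also a miRNA of motor neurons.

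The mature sequences show which of these genes can be told apart by their reads, and each is written 5′ to 3′ with the seed, bases 2 to 8 that pair with targets, in capitals (RefSeq, build GRCm38.p6). miR-221-3p and miR-222-3p start with the same 8 bases and so share a seed, and then differ. Mir218-2 and Mir218-1 give an identical 5p miRNA and different 3p miRNAs. The RefSeq table lists no 5p product for Mir126a and Mir222, so none is shown. For all 5 genes, a count does not record which arm of the hairpin its reads came from. miR-126a-3p, miR-221-5p and miR-218-2-3p shared their seeds with no other mature mouse miRNA among the 1679 names of the RefSeq table.
miR-126a-3p: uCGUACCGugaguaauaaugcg
miR-221-3p: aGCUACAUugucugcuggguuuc
miR-222-3p: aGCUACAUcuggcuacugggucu
miR-221-5p: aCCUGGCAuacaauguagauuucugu
miR-218-5p, from both Mir218 genes: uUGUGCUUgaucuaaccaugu
miR-218-2-3p: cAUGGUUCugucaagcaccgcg
miR-218-1-3p: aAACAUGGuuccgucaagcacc

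The hairpins of Mir218-2 and Mir218-1 are shown in full, with their longest common stretch in capitals, because it limits what the counts of these genes can hold. The stretch is 22 bases long and contains all 21 bases of miR-218-5p.
Mir218-2: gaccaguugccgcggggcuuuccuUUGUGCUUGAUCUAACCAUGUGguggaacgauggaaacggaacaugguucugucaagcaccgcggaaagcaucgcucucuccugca
Mir218-1: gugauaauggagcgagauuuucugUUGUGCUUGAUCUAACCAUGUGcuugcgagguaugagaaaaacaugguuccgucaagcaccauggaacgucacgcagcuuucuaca
A read that lies wholly inside the capitals has no single origin and can fall among the reads mapping to several places. After that stretch, the next longest common to the hairpins was 10 bases. The counts of Mir218-2 and Mir218-1 are therefore uncertain as measures of miR-218-5p, and which arm their reads came from is not recorded in a count per gene. For the other 3 genes the longest stretch shared with any other hairpin of the table was 11 bases for Mir126a, 12 for Mir221 and 12 for Mir222.

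By reads given to a gene, Mir126a was among the most abundant miRNA genes of the embryonic heart. The other 4 genes lay below the median level of detected genes, which was 104 CPM. Reads that mapped to several places count for no gene, so levels, ranks and this median leave them out. Genes that share their mature sequence with another copy can therefore rank too low. Mir126a had 288056 counts in replicate 2 and 302625 in replicate 1. This was 75015 CPM in replicate 2 (95% Poisson interval 74741 to 75289) and 69932 CPM in replicate 1 (69683 to 70182), with a mean of 72473 ± 3594 CPM (SD, n = 2). It held rank 3 in replicate 2 and rank 2 in replicate 1, and took 7.50% of the assigned reads in replicate 2 and 6.99% in replicate 1. Together the 5 genes summed to 75196 CPM in replicate 2 and 70093 in replicate 1, of which Mir126a gave 99.8% in each library.

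**Figure D1:**
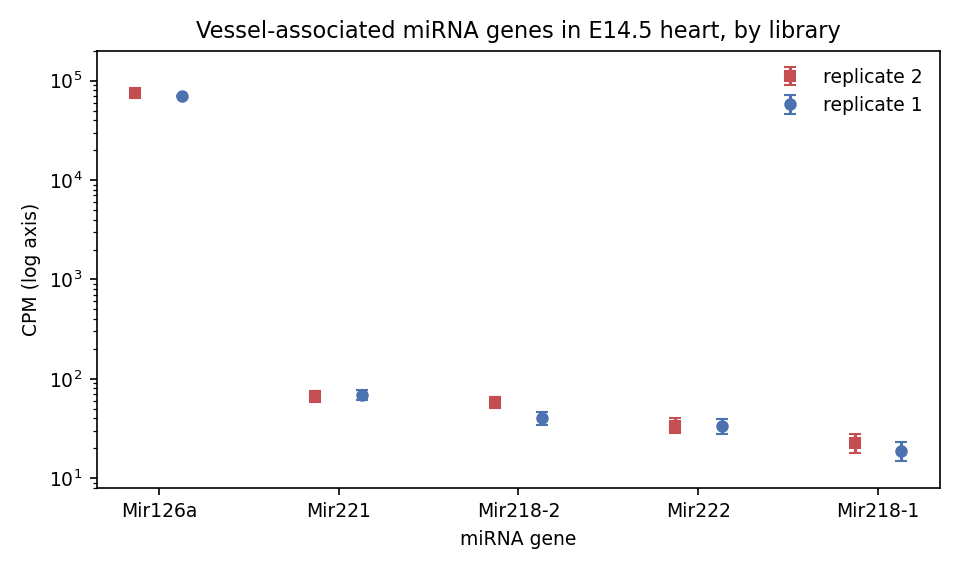
CPM on a log axis for each of the 5 miRNA genes, with replicate 2 as squares, replicate 1 as circles and bars for the 95% Poisson interval of each count. Mir126a lies near 72473 CPM and the other 4 genes lie between 18.7 and 69.1 CPM.

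Mir126a (Ensembl ENSMUSG00000065540.1) lies on the plus strand of mm10 chromosome 2, from 26591357 to 26591429. It lies inside 9 annotated transcripts of Egfl7 on the same strand, in an intron of 8 and overlapping an exon of the remaining 1, and in intron 3 of a transcript of Gm20532. The sequence of miR-126a-3p was found in the annotated transcripts of Mir126a and Egfl7 and in those of no other gene. Only 1 Egfl7 transcript held it. On the strand opposite to Mir126a, where a second hairpin named Mir126b is annotated, there were 17 counts in replicate 2 and 15 in replicate 1, and 0.811% of all 1973 genes had 10 or more such counts in both libraries.

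Genes nearest in level to Mir126a gave a yardstick for it within each library. The 2 genes above it by mean level were Mir335 at 119648 ± 7637 CPM and Mir143, a miRNA of smooth muscle, at 74458 ± 15820 CPM. The 2 below were Mir322 at 69474 ± 3573 CPM and Mir208b, a cardiomyocyte miRNA made from within a myosin gene, at 66568 ± 359 CPM (SD, n = 2 each). Mir126a stood at 1.12 times Mir208b in replicate 2 (95% counting interval 1.12 to 1.13) and 1.05 times in replicate 1 (1.05 to 1.06). It stood at 1.04 times Mir322 in each library. Against Mir143 the order turned, at 0.876 times Mir143 in replicate 2 (0.872 to 0.880) and 1.11 times in replicate 1 (1.10 to 1.11). Mir126a and Mir143 were therefore not separable beyond the spread between these libraries, whereas the order above Mir208b and Mir322 held in both.

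Blood markers are given beside Mir126a because miR-126 is also known from blood progenitors and megakaryocytes, and a heart holds blood. Both red blood cell markers found by exact name, Mir451a and Mir144, were lower in replicate 2. They summed to 489 CPM in replicate 2 and 1184 in replicate 1. The listed Mir486a was counted as Mir486, at 48.7 CPM in replicate 2 and 59.2 in replicate 1. It was also lower in replicate 2 and is not in the sum. The 3 markers of white cells and platelets found by exact name summed to 405 CPM in replicate 2 and 493 in replicate 1, with all 3 detected. Of these, 1 was higher in replicate 2 and 2 were lower. Mir126a stood 181 times above Mir451a in replicate 2 and 64.2 times in replicate 1, and 258 and 202 times above Mir223, a miRNA of myeloid cells and platelets. The red cell sum in replicate 2 was 0.413 times that in replicate 1, and Mir126a was 1.07 times. The part of blood in the Mir126a level was not tested. Which cells the reads came from was not measured.

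Mir221 and Mir222 were low and close between the libraries. Mir221 had 257 counts in replicate 2 and 299 in replicate 1, which was 66.9 CPM (95% Poisson interval 59.0 to 75.6) and 69.1 CPM (61.5 to 77.4). Mir222 had 130 counts in replicate 2 and 144 in replicate 1, which was 33.9 CPM (28.3 to 40.2) and 33.3 CPM (28.1 to 39.2). The 2 libraries of each gene lay inside each other's intervals, and the ranges of Mir221 and Mir222 did not overlap. Means were 68.0 ± 1.53 CPM for Mir221, at rank 188, and 33.6 ± 0.409 CPM for Mir222, at rank 228 (SD, n = 2 each).

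Both hairpins lie on the minus strand of the X chromosome, Mir221 (ENSMUSG00000065422.1) from 19146294 to 19146388 and Mir222 (ENSMUSG00000065471.1) from 19146893 to 19146971. They stand 504 bases apart, and no other annotated transcript spans either. The nearest other annotated gene, Gm14636 on the same strand, lies 10010 bases from Mir222. Within a library, Mir221 exceeded Mir222 by 1.98-fold in replicate 2 (95% counting interval 1.59 to 2.46) and by 2.08-fold in replicate 1 (1.70 to 2.55). The interval excluded equality of reads in each library, and the ratio of reads averaged 2.03 ± 0.0703 (SD, n = 2). Mir1928 is the other gene of the RefSeq table with a product of this seed, and it had 0 counts in both libraries. Taking 3 counts as the limit that a count of 0 leaves, its level could reach 0.781 CPM in replicate 2 and 0.693 CPM in replicate 1.

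Mir126a stood far above the pair with the same vascular association. It exceeded the sum of Mir221 and Mir222 by 744-fold in replicate 2 (95% counting interval 674 to 824) and by 683-fold in replicate 1 (622 to 752). It exceeded the sum of Mir218-2 and Mir218-1 by 935-fold in replicate 2 (836 to 1049) and by 1191-fold in replicate 1 (1054 to 1353). For the miR-218 comparison these are values for reads with a single origin, for the reason shown in the hairpins above.

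**Figure D2:**
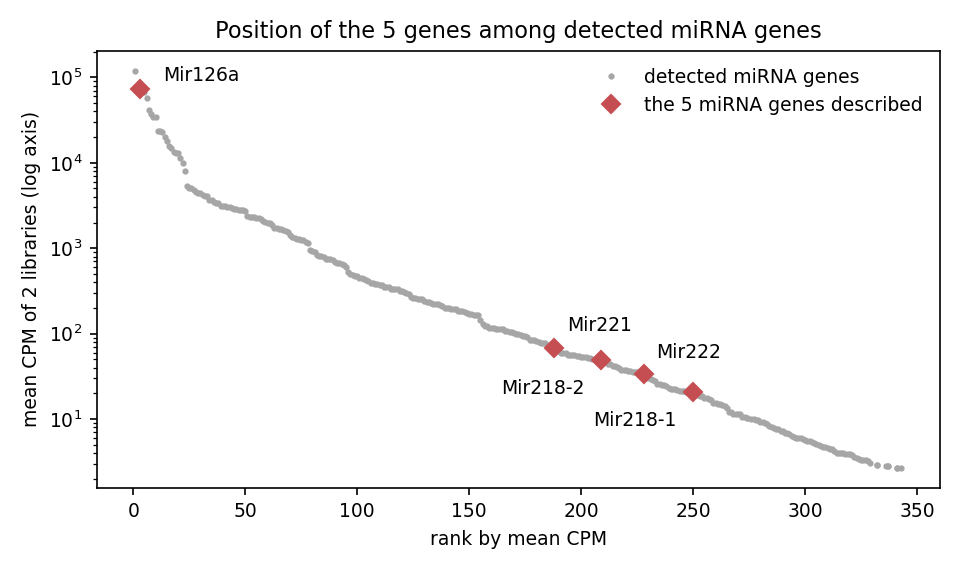
Mean CPM of the 2 libraries (log axis) against rank for the 337 detected genes (grey points), with the 5 genes as diamonds. Mir126a is at rank 3 and the other 4 genes are at ranks 188 to 250.

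The miR-218 genes differed from each other and, for Mir218-2, between the libraries. Mir218-2 had 222 counts in replicate 2 and 173 in replicate 1, which was 57.8 CPM (95% Poisson interval 50.5 to 65.9) and 40.0 CPM (34.2 to 46.4). Mir218-1 had 86 counts in replicate 2 and 81 in replicate 1, which was 22.4 CPM (17.9 to 27.7) and 18.7 CPM (14.9 to 23.3). Replicate 2 was the higher library for both genes, and the intervals of the libraries overlapped for Mir218-1 but not for Mir218-2. Means were 48.9 ± 12.6 CPM for Mir218-2, at rank 209, and 20.6 ± 2.60 CPM for Mir218-1, at rank 250 (SD, n = 2 each).

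Mir218-2 (ENSMUSG00000065583.1) lies on the plus strand of chromosome 11, from 35616816 to 35616925, in intron 14 of the 1 annotated Slit3 transcript that spans it. Mir218-1 (ENSMUSG00000065603.1) lies on the plus strand of chromosome 5, from 48223942 to 48224051, in an intron of all 7 Slit2 transcripts that span it. Mir218-2 exceeded Mir218-1 by 2.58-fold in replicate 2 (95% counting interval 2.00 to 3.35) and by 2.14-fold in replicate 1 (1.63 to 2.82). By reads with a single origin, the Slit3 copy was therefore the higher in each library. Mir7002, whose 3p product has the seed of miR-218-5p, had 0 counts in both libraries, and so did Mir496b, which has the seed of miR-218-1-3p. The limits on 0 counts given for Mir1928 apply to both.

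Across the lower 4 genes the order by mean level was Mir221, Mir218-2, Mir222 and Mir218-1, but not every step held in both libraries. Mir221 exceeded Mir218-2 by 1.73-fold in replicate 1 (95% counting interval 1.43 to 2.10), while in replicate 2 the ratio was 1.16 with an interval of 0.964 to 1.39 that included equality. Mir218-2 exceeded Mir222 by 1.71-fold in replicate 2 (1.37 to 2.14), while in replicate 1 the ratio was 1.20 (0.957 to 1.51) and again included equality. Mir222 exceeded Mir218-1 by 1.51-fold in replicate 2 (1.14 to 2.01) and by 1.78-fold in replicate 1 (1.34 to 2.36). Summed by family, Mir221 and Mir222 stood at 101 CPM in replicate 2 and 102 in replicate 1, and Mir218-2 and Mir218-1 stood at 80.2 and 58.7 CPM. The sum of Mir221 and Mir222 was the higher by 1.26-fold in replicate 2 (1.08 to 1.46) and by 1.74-fold in replicate 1 (1.49 to 2.04).

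**Figure D3:**
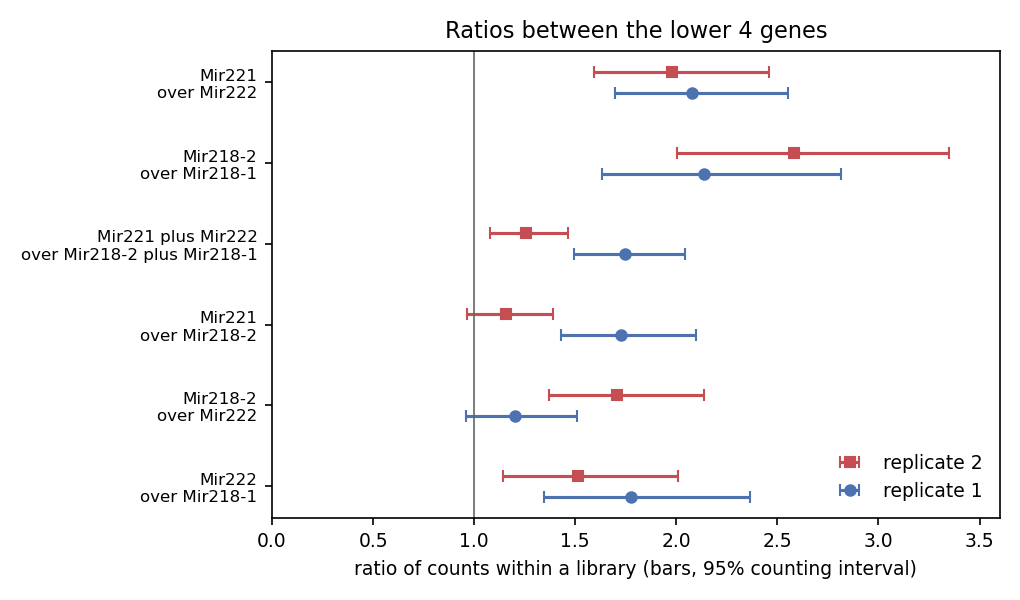
Ratio of counts within a library for 6 pairs of the lower 4 genes or their sums, replicate 2 as squares and replicate 1 as circles, with 95% counting intervals and a line at equality. Mir221 over Mir222 and Mir218-2 over Mir218-1 lie clear of 1 in both libraries, while Mir221 over Mir218-2 reaches it in replicate 2 and Mir218-2 over Mir222 in replicate 1. Ratios with Mir218-2 or Mir218-1 hold for reads with a single origin only.

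All 5 genes passed the limit used for detection, 10 counts or more in both libraries, against 17.1% of all 1973 miRNA genes. The 5 were chosen with their levels known, so nothing is read from that count. Among the 337 detected genes, 12.8% differed by more than 1.5-fold between the libraries in either direction, and 0 of the 5 did. With 5 genes this is not set apart from the other detected genes. The ratio of replicate 2 to replicate 1 was 1.45 for Mir218-2 (95% counting interval 1.18 to 1.77), 1.20 for Mir218-1 (0.873 to 1.64), 1.02 for Mir222 (0.796 to 1.30) and 0.969 for Mir221 (0.817 to 1.15). For Mir126a it was 1.07 (1.07 to 1.08), a narrow interval because of its many counts. With median-of-ratios scaling all genes shifted by -0.11 on the log2 scale, and the ratios of Mir126a and Mir222 turned to 0.991 and 0.940. The ratio of Mir218-2 was then 1.34 and that of Mir218-1 was 1.11.

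**Figure D4:**
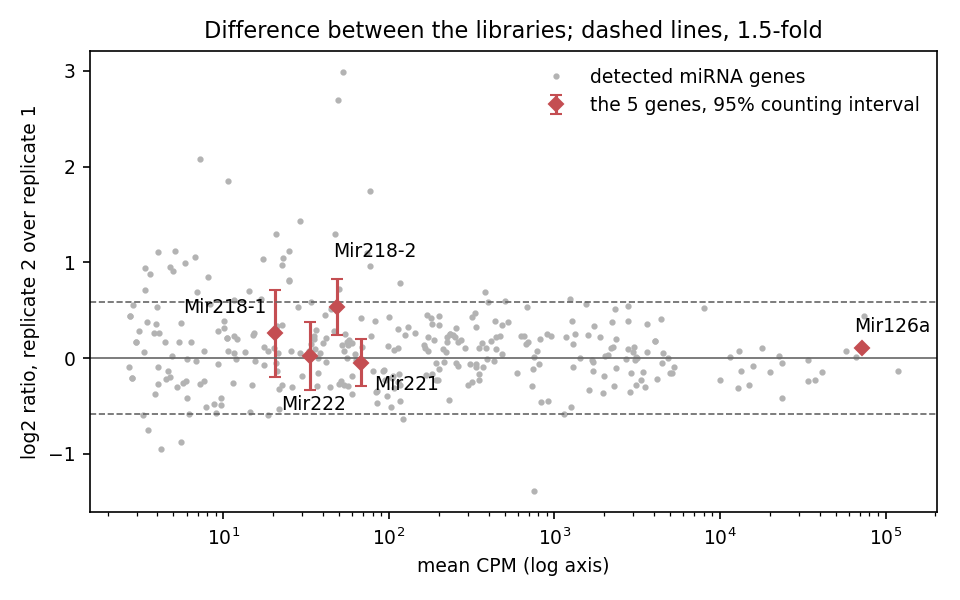
Log2 ratio of CPM in replicate 2 over replicate 1 against mean CPM (log axis) for the 337 detected genes (grey), with the 5 genes as diamonds with 95% counting intervals and dashed lines at 1.5-fold. All 5 diamonds lie between the dashed lines, with Mir218-2 the highest at 0.53.

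Of the 337 detected genes, 57 had a larger absolute log2 ratio than Mir218-2, 148 a larger one than Mir218-1, and 262, 307 and 319 a larger one than Mir126a, Mir221 and Mir222. The median absolute log2 ratio of detected genes was 0.23, so only Mir218-2 and Mir218-1, at 0.53 and 0.26, lay above it. Markers of smooth muscle, epithelium and neurons are given beside Mir218-2. They were chosen because their summed levels were also higher in replicate 2 and miR-218 is known from vessels and motor neurons. That choice fixed the direction of the sums in advance, so nothing is read from it. All 3 cardiomyocyte markers were higher in replicate 2 as well, with a summed ratio of 1.05. Both smooth muscle markers, Mir143 and Mir145a, were higher in replicate 2 and summed to 87098 CPM there and 64494 in replicate 1, a ratio of 1.35. All 7 epithelial markers were higher in replicate 2 and summed to 1142 CPM there and 667 in replicate 1. Among all 337 detected genes, 201 were higher in replicate 2 and 136 lower, with a median ratio of 1.06. The 6 neuron markers found by exact name summed to 209 CPM in replicate 2 and 157 in replicate 1. However, 1 was higher in replicate 2, 2 were lower and 3 had 0 counts in both. The higher one, Mir137, had 329 counts in replicate 2 and 57 in replicate 1. The lower ones were Mir128-1 and Mir128-2, and the 3 at 0 were Mir9-2, Mir9-3 and Mir124a-1. The listed Mir124-2 and Mir124-3, counted as Mir124a-2 and Mir124a-3, also had 0 counts in both libraries. The miR-128 and miR-9 hairpins share 20 or more bases with other hairpins, so their reads can have been set aside and their levels are uncertain. For the Mir124 genes this was not checked. The part of these markers in the Mir218-2 difference was not tested.

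By the same rule of nearest levels, Mir218-2 stood between Mir137 (49.4 ± 51.3 CPM) and Mir183 (47.1 ± 28.0 CPM), and both were more variable between the libraries. Mir218-1 stood between Mir96 (20.7 ± 12.3 CPM) and Mir34b (20.4 ± 1.03 CPM). Mir221 stood between Mir496a (68.3 ± 13.9 CPM) and Mir30c-2 (62.9 ± 0.578 CPM), and Mir222 between Mir3099 (33.9 ± 2.51 CPM) and Mir760 (32.7 ± 1.21 CPM; SD, n = 2 each). The second neighbours of these 4 genes, Mir7689, Mir199a-2, Mir129-2, Mir19a, Mir5099, Mir539, Mir6236 and Mir193b, had mean levels of 19.3 to 68.4 CPM. The levels of Mir30c-2, Mir129-2 and Mir199a-2 are uncertain, since each hairpin has 20 or more bases in common with another. With 2 libraries of 1 condition, likeness could be measured by level alone.

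A list of 36 miRNA genes linked to endothelium and vessel growth, the 5 included, sets them in a wider vascular context. Of these, 31 were found by exact name and all 31 were detected, against the 17.1% of all genes given above. The list was chosen with earlier results of these libraries known, so that count and the median level of the list are descriptions only. The median level of the 31 was 896 CPM, beside 104 CPM for the 337 detected genes and 0 for all 1973. Mir18a, Mir92a-1 and Mir146a were counted under the older names Mir18, Mir92-1 and Mir146, and the values of the 31 leave them out. They were detected, at 2346 ± 231, 1706 ± 113 and 56.5 ± 8.05 CPM (SD, n = 2 each). Mir143 was the only gene of the list above Mir126a by mean level. Mir126a made up 21.3% of the reads of the 31 genes in replicate 2 and 21.8% in replicate 1.

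Mir143, Mir126a and Mir322 were the 3 highest genes of the list. Mir221 had 22 of the 31 genes above it, among them Mir210, a hypoxia miRNA, at 896 ± 111 CPM and Mir155, an immune and endothelial miRNA, at 116 ± 25.0 CPM. Mir218-1 had 5 below it, of which Mir150, a lymphocyte miRNA, had 15.1 ± 1.80 CPM, Mir181b-1 had 12.0 ± 0.0263 CPM and Mir19b-1, from a cluster known to favour vessel growth, had 9.08 ± 2.52 CPM (SD, n = 2 each). Of the 31 genes, 28 have a RefSeq hairpin under that name, and 9 of these share at least 20 bases with another. Both Mir218 genes, Mir181b-1 and Mir19b-1 are among the 9, and the levels of all 9 are uncertain. Among the 31, 19 genes were higher in replicate 2 and 12 lower, beside 201 higher and 136 lower among the 337 detected genes.

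**Figure D5:**
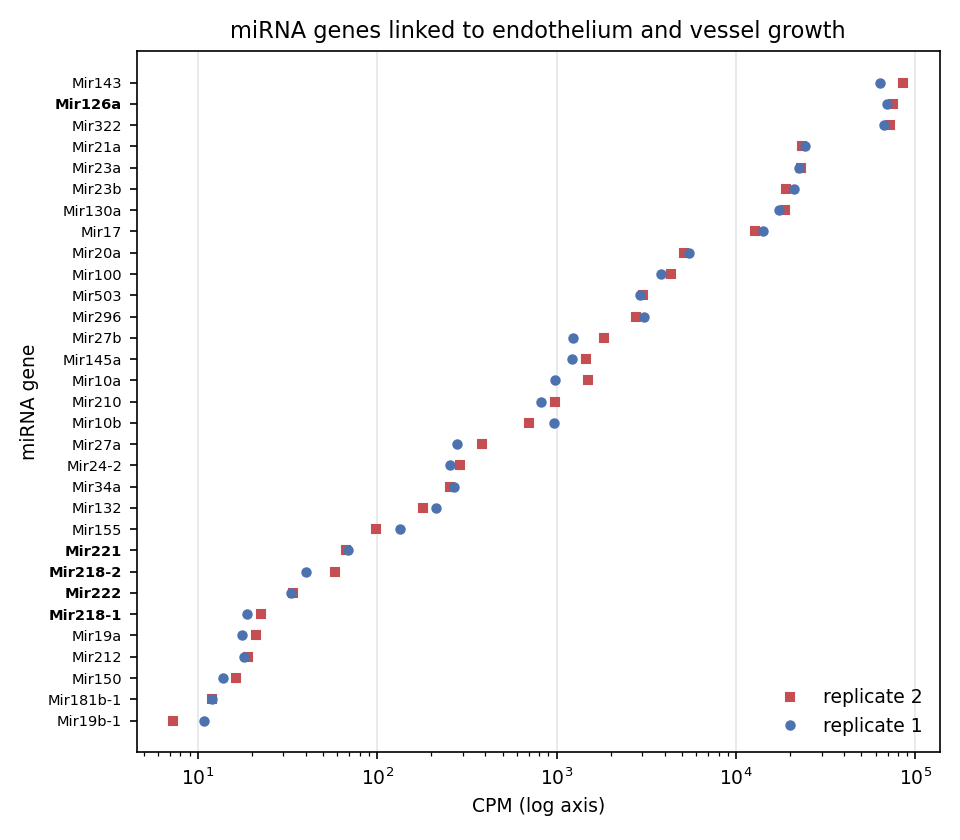
CPM on a log axis for the 31 genes of the vascular list found by exact name, ordered by mean level. Replicate 2 is shown as squares and replicate 1 as circles, with the 5 genes described in bold. Mir126a is second from the top, and 22 genes lie above Mir221.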

How the data were processed

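Small RNA libraries of mouse embryonic heart (2 libraries, 1 group) were analysed from the deposited read counts, 1 table per library. Per the deposited descriptions, counts refer to mm10 and GENCODE M4. The sources used here name neither aligner nor counter. Each table holds whole-number counts for both strands together and for each strand, which the authors did not normalize, as judged from whole numbers with different totals. The second count column, 1 strand alone, was used. It held 95.4% of gene reads in replicate 2 and 95.3% in replicate 1. The 4 lines naming no gene, 47.2% and 46.9% of reads, stayed out of totals.

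Names and coordinates came from GENCODE M21 (1894 of 1973 identifiers named, the other 79 with at most 1 count), and all 5 genes matched the RefSeq table (GRCm38.p6). No genome sequence was searched. Genes of the lists were matched by exact name, so sums and counts leave out those entered under another name. Detection required 10 counts per library. Counting intervals (95%) were exact Poisson for CPM and Clopper-Pearson for 14 ratios. They and the limits from 3 counts cover counting error only, because PCR reads with no molecular identifiers may repeat a molecule. With 1 group there is no comparison between conditions, and ratios between genes were not tested across the 2 libraries. The labels number the libraries as biological replicates with different collection days, so the spread between them joins biological and technical variation, which cannot be told apart. Members, lists and the rule for named genes (the 5 genes, the 2 nearest in level on each side, the 3 highest and 3 lowest of the vascular list, and markers) were chosen with earlier results of these data known. Mir210, Mir155, Mir1928, Mir7002, Mir496b, Mir18, Mir92-1 and Mir146 were named after their values were seen. Interval code was checked on simulated counts. Alternatives used edgeR 4.0.16 (TMM) and DESeq2 1.42.0 (median-of-ratios size factors) in R 4.3.3. The remaining work used matplotlib 3.10.9, scipy 1.17.1, pandas 2.3.3, numpy 2.4.6 and Python 3.11.15.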

Additional observations from a re-analysis of the deposited data

Results flagged for a closer look

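Reads on the strand opposite to Mir126a lie outside the counted column and were above the limit of 3 counts that a count of 0 allows. There were 17 in replicate 2 (95% Poisson interval 9.90 to 27.2) and 15 in replicate 1 (8.40 to 24.7), which is 0.00590% and 0.00496% of the reads of both strands of the locus. At least 10 such reads in each library were found for 0.811% of the 1973 genes. A second annotated hairpin, Mir126b, lies on that strand at 26591363 to 26591420, and its 58 bases are the exact reverse complement of part of the Mir126a hairpin. Mir126b itself was not analysed here. The other 4 genes had 0 counts on the opposite strand in both libraries.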

How the results depend on the processing

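Of 136 alternative values, 112 stayed within the spread or interval of the reported value and 24 moved. Some of the 112 could not have moved, so that count does not measure robustness. With 2 libraries, a level or gene ratio from 1 library always lies within the SD around their mean. Counting both strands cannot change ratios among Mir221, Mir222, Mir218-2 and Mir218-1, which had 0 counts on the opposite strand. Scaled to all reads in place of reads on genes, levels were 38377 for Mir126a, 36.0 for Mir221, 25.9 for Mir218-2, 17.8 for Mir222 and 10.9 for Mir218-1. With both strands counted, Mir221 and Mir222 had 64.8 and 32.0 CPM, and ranks were 198 for Mir221, 220 for Mir218-2, 238 for Mir222 and 260 for Mir218-1. With Mir126a left out of the total, Mir221 and Mir222 had 73.3 and 36.2 CPM. The ratio of replicate 2 to replicate 1 for Mir126a was 1.03 with TMM, 0.991 with median-of-ratios size factors and 1.07 when scaled to all reads. Genes past the fold numbered 16 at 2-fold and 156 with at least 1 count in each library (of 542), against 43. In each case 0 of the 5 genes were among them, which neither setting could have changed. A higher fold can only remove genes, and a lower count limit leaves the ratios of the 5 genes unaltered. Leaving out each replicate in turn gave ranks of 2 to 3 for Mir126a, 183 to 190 for Mir221, 201 to 209 for Mir218-2, 220 to 229 for Mir222 and 242 to 245 for Mir218-1. Minimum counts left 5 of 5 genes detected at 1, 3 and 30, and 4 at 100. At 1 and 3, below the limit used, no gene could be lost. The planned search of mature sequences against the genome was not run. Depth limits Mir218-1 most, at 86 and 81 counts. No paired analysis was possible because there is 1 group.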
